A study of Mus musculus with 20 samples.

Results

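The genes described here are 7 Mas-related G protein-coupled receptors of mouse sensory neurons: Mrgprd, Mrgpra3, Mrgprx1, Mrgprb4, Mrgprb5, Mrgpre and Mrgprf. They were found by gene symbol in a table of 78258 Ensembl genes, each symbol matched 1 gene, and all 7 were among the 28564 genes that passed the filter on low counts. Libraries of mRNA came from the dorsal root ganglia (DRG) of lumbar levels L4 to L6 of 10 male mice; these ganglia hold the cell bodies of sensory neurons beside glia, fibroblasts and vessels. The conditional knockout (cKO) mice were Ahr fl/fl Thy1CRE-ERT2/EYFP, that is, both alleles of the aryl hydrocarbon receptor gene were floxed, and a tamoxifen-dependent Cre with a yellow fluorescent protein was, by its name, driven by Thy1, a promoter used for expression in neurons. The control mice were Ahr f/f or f/+, with no Cre named in their labels. All mice of both genotypes were given tamoxifen at 100 mg/kg once a day for 5 days from 17 weeks of age, and the sciatic nerve was cut 4 weeks later. Ganglia were taken 1 day after the cut from the cut side (ipsilateral) and the other side (contralateral) of each mouse, which gave 4 groups of 5 libraries. The contralateral ganglia came from the same injured, tamoxifen-treated animals, so no group was free of either. Libraries held 76.2 to 118.5 M counts (M, mega).

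Mas-related receptors are G protein-coupled receptors, most of which signal through Gq proteins and phospholipase C, and several are markers of single classes of small-diameter sensory neurons. Mrgprd, a receptor for beta-alanine, marks the nonpeptidergic nociceptors of the skin, called NP1 neurons. Mrgpra3, a receptor for chloroquine, and Mrgprx1 (older name Mrgprc11), a receptor for the peptides BAM8-22 and SLIGRL, mark itch neurons of the NP2 class. Mrgprb4 and Mrgprb5 mark fibres of hairy skin that respond to stroking. Mrgpre is found in several neuron classes, and Mrgprf is an orphan receptor that is also known from non-neuronal tissue.

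Several of these receptors are close copies of each other, and this bears on how far their counts can be told apart. Over aligned coding sequence, Mrgprb4 and Mrgprb5 were 84.5% identical, Mrgpra3 and the pseudogene Mrgprx3-ps 84.1% and Mrgprx1 and the pseudogene Mrgprc1-ps 91.1%. All other pairs of the 7 receptors were 58.2% to 69.7% identical. The stretches of 150 bases that are most alike in 2 of these pairs are shown because a read of 150 bases is what had to separate them. Sequences are from GENCODE M21 transcripts of the GRCm38 build, read 5′ to 3′, and the capitals mark the bases that differ within a pair. Mrgprb4 is shown from base 779 to 928 and Mrgprb5 from base 782 to 931 of the coding sequence, with 6 differences; both stretches code for the end of the receptor.
Mrgprb4: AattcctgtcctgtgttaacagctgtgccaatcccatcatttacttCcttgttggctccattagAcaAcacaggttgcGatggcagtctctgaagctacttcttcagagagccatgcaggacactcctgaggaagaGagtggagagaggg
Mrgprb5: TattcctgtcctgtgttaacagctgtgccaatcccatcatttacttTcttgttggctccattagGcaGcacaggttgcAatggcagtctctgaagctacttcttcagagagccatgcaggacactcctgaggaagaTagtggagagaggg

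Mrgpra3 is shown from base 131 to 280 of the coding sequence and Mrgprx3-ps from base 50 to 199 of its transcript, with 11 differences.
Mrgpra3: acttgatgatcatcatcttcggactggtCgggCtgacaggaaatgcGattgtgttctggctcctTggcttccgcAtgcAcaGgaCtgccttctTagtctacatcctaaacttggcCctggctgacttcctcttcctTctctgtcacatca
Mrgprx3-ps: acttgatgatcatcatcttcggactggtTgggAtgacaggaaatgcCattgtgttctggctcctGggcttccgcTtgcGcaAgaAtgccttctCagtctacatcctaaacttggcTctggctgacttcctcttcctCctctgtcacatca

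No window of 150 bases in the transcripts of any of the 7 receptors, or of Mrgprx3-ps, occurred in another gene. At a window of 50 bases the share that occurred elsewhere was 7.14% for Mrgpra3, 5.84% for Mrgprx1, 1.45% for Mrgprb4, 0.810% for Mrgprb5, 0.808% for Mrgpre and 0 for Mrgprd and Mrgprf. Mrgpra2a and Mrgpra2b, which are other members of the family, had identical bases at 991 of 993 coding positions and shared 60.6% and 59.2% of their windows of 150 bases, so reads of these 2 genes could be split between them by the counting.

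Promoter windows from 250 bases before to 50 bases after the start were given by RefSeq (GRCm38.p6) for 5 of the 7 receptors, and Mrgpra3 and Mrgprf had no entry. They were searched on both strands for GCGTG, the core of the response element bound by the aryl hydrocarbon receptor, for TGTGGT, the core bound by RUNX factors, and for TGACTCA, the AP-1 motif; none of these letter strings overlaps another in the windows searched. Mrgpre was the only one of the 5 windows with any match. It held GCGTG from position -18 on the gene's strand and from position -157 on the opposite strand, counted from the start, and is printed for that reason from chr7:143784451-143784750, minus strand, with both matches in capitals.
Mrgpre promoter: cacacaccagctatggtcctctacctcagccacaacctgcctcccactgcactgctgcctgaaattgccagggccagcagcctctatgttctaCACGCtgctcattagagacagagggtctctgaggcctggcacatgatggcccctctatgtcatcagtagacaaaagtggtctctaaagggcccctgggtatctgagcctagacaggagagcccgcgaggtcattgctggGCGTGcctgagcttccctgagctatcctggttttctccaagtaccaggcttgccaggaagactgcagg

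Of all 32851 promoter windows, 32.4% held GCGTG, 16.8% held TGTGGT and 5.20% held TGACTCA. A match describes letters only, and binding was not analysed here.

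The library check came first. Ahr had 24.2 ± 2.10 CPM (counts per M counts of the library, scaled by the TMM method) in control and 20.4 ± 0.536 CPM in cKO contralateral libraries (SD, n = 5), and the difference was not called by edgeR's quasi-likelihood test (log2 fold change -0.25, adjusted p = 0.103). Whole ganglia also hold cells other than neurons, and the floxed exon was not analysed apart from the rest of the gene. The injury gene Atf3 rose on the cut side in both genotypes, by 5.23 and 5.50 on the log2 scale. The 7 defining markers of sensory neurons were detected in each group and together made up 3462 to 4253 CPM per library. Of the fibroblast markers, 3 of the 5 cKO contralateral libraries (mice 64, 95 and 100) held 2263, 2010 and 1718 summed CPM, the highest of all 20 libraries, against 808 to 1578 in the other 17. Those of mice 64 and 95 also held the 2 lowest sums of the sensory neuron markers (3462 and 3473 CPM), and that of mouse 64 the highest sums of neutrophil (146 CPM), endothelial (120 CPM), erythroid (833 CPM) and mast cell markers (35.9 CPM). Results that rest on these libraries are given with and without them, an alternative chosen after the data were seen.

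Per kilobase of exon, the level of Mrgprd stood far above the other receptors. In control contralateral ganglia it was 70.1 CPM per kb, followed by Mrgprx1 at 22.4, Mrgpra3 at 16.0, Mrgprb4 at 14.6, Mrgpre at 9.98, Mrgprb5 at 4.07 and Mrgprf at 2.07 CPM per kb (means, n = 5). Mrgpra3 and Mrgprb4 overlapped between libraries, and every other neighbour in this order was separated in all 5 libraries. The places of the lower receptors depend on which length is used, since Mrgpre has 3761 bases of exon, of which 930 are coding. Per kilobase of coding sequence Mrgpre came second at 40.4 CPM per kb, behind Mrgprd at 229. On the cut side of control mice the order by exon length was Mrgprd, Mrgprx1, Mrgprb4, Mrgpra3, Mrgpre, Mrgprf and Mrgprb5.

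**Figure D1:**
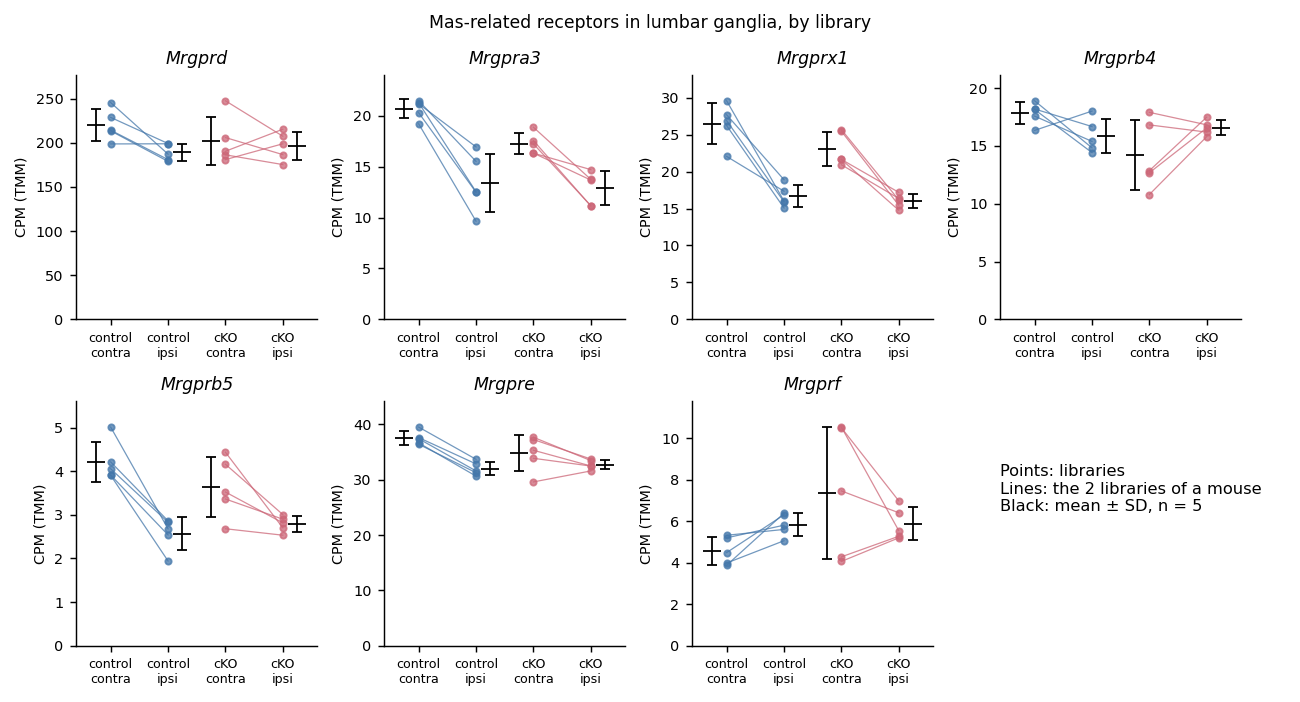
Level of each receptor in each of the 20 libraries, in TMM-scaled CPM on a linear axis from 0; points are libraries, lines join the contralateral and ipsilateral library of a mouse, and black bars are the mean ± SD (n = 5). Mrgpra3, Mrgprx1 and Mrgprb5 are lower on the ipsilateral side in 10 of 10 mice, and 3 cKO contralateral libraries stand above the rest for Mrgprf (7.47 to 10.5 CPM).

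The first comparison was that of the cut with the uncut side in control mice. On the cut side 5 of the 7 receptors fell, in a table where 16.0% of the 28564 tested genes were called lower and 29.9% were called in either direction. The largest log2 fold changes were those of Mrgprb5 (-0.71), Mrgprx1 (-0.67) and Mrgpra3 (-0.62), and Mrgpre and Mrgprd fell by less than 0.25 on the same scale. Mrgprb4 and Mrgprf were not called. The median log2 fold change of the 7 receptors was -0.23, against -0.0047 over all tested genes. In whole ganglia, fewer cells of a class and less RNA per cell cannot be told apart.

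Mrgprx1, one of the 2 itch receptors, had 22.1, 26.2, 27.7, 26.9 and 29.6 CPM in the contralateral and 17.3, 15.1, 18.9, 15.9 and 16.0 CPM in the ipsilateral libraries of control mice 62, 63, 65, 96 and 97. All 5 ipsilateral libraries lay below all 5 contralateral ones. The means were 26.5 ± 2.78 and 16.6 ± 1.50 CPM (SD, n = 5), with a log2 fold change of -0.67 (SE 0.0773, edgeR adjusted p = 9.24e-07).

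Mrgpra3, the other itch receptor, had 21.5, 19.2, 21.2, 20.3 and 21.3 CPM contralaterally and 15.5, 9.65, 16.9, 12.5 and 12.5 CPM ipsilaterally in the same order of mice. The groups did not overlap, and mouse 63 had the lowest level on both sides. From 20.7 ± 0.941 to 13.4 ± 2.86 CPM (n = 5), the log2 fold change was -0.62 (SE 0.112, edgeR adjusted p = 2.18e-04).

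Mrgprb5, of the stroking-sensitive fibres, had 3.91, 3.91, 4.06, 5.01 and 4.21 CPM contralaterally and 2.54, 1.94, 2.83, 2.68 and 2.86 CPM ipsilaterally. Here too the groups did not overlap, and the highest value was that of mouse 96 on the contralateral side. It fell from 4.22 ± 0.461 to 2.57 ± 0.374 CPM (n = 5), a log2 fold change of -0.71 (SE 0.120, edgeR adjusted p = 9.10e-05). Over all groups Mrgprb5 had 151 to 604 counts per library.

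Mrgprb4, the close copy of Mrgprb5, had 17.6, 18.1, 16.3, 18.9 and 18.2 CPM contralaterally and 15.4, 14.4, 18.0, 14.8 and 16.7 CPM ipsilaterally. The ranges overlapped, since mouse 65 had the lowest contralateral and the highest ipsilateral level. A log2 fold change of -0.17 was not called (edgeR adjusted p = 0.240). The ratio of Mrgprb5 to Mrgprb4 was lower on the cut side in 10 of 10 mice of both genotypes together, at 0.210 to 0.345 contralaterally and 0.135 to 0.184 ipsilaterally; this ratio was chosen after the values were seen and was not tested.

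Mrgpre had the most even response. Its level was 39.5, 36.7, 37.6, 36.4 and 37.4 CPM contralaterally and 33.7, 30.7, 32.9, 31.3 and 31.6 CPM ipsilaterally. The groups did not overlap, and the log2 ratio between the sides was -0.26 to -0.20 in the 5 control mice. The fitted log2 fold change was -0.23 (SE 0.0495, edgeR adjusted p = 0.00116).

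Mrgprd, the nociceptor marker, had 199, 214, 229, 214 and 246 CPM contralaterally and 199, 179, 199, 181 and 187 CPM ipsilaterally. The ranges overlapped narrowly. The contralateral library of mouse 62 (198.8 CPM) lay below the ipsilateral ones of mice 62 (198.9 CPM) and 65 (199.2 CPM). Mouse 62 was at 199 CPM on both sides, and the other 4 mice were lower on the cut side. The log2 fold change was -0.22 (SE 0.0765, edgeR adjusted p = 0.0351), from 220 ± 17.7 to 189 ± 9.62 CPM (n = 5). This call was lost without mouse 63, 65, 96 or 97 (adjusted p 0.0758 to 0.181) and when no filter on low counts was used (adjusted p = 0.127). With 13917 to 25828 counts per library, counting error did not set its precision.

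Mrgprf, the orphan receptor, had 5.20, 5.33, 3.99, 4.49 and 3.88 CPM contralaterally and 5.81, 5.61, 5.06, 6.31 and 6.39 CPM ipsilaterally. The ipsilateral library was the higher one in each of the 5 control mice, and 4 of them lay above every contralateral library. A log2 fold change of 0.35 was not called with the spread estimated over all 20 libraries (edgeR adjusted p = 0.265). It was called when only the libraries compared were fitted (0.37, edgeR adjusted p = 0.0118) and when the 3 fibroblast-rich cKO libraries were left out of the fit (0.36, edgeR adjusted p = 0.00955).

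**Figure D2:**
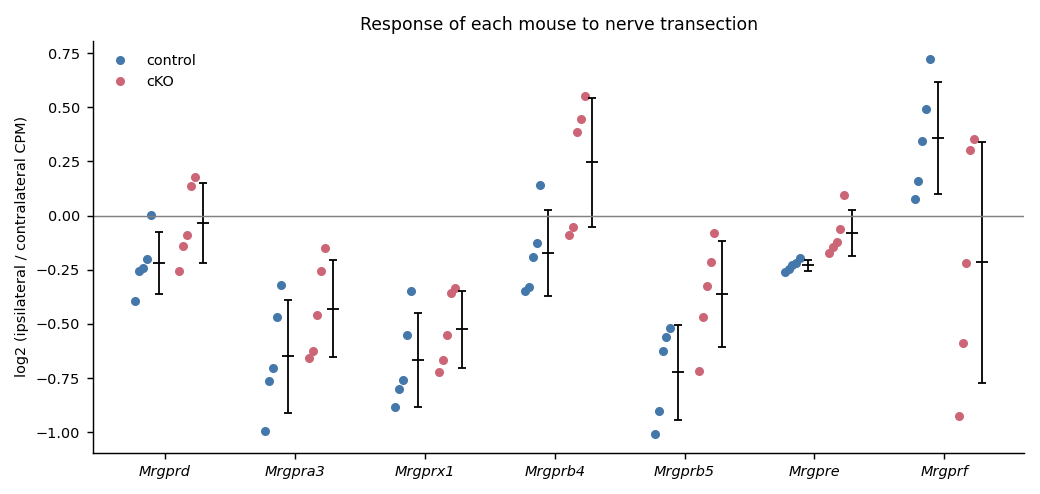
Log2 ratio of ipsilateral to contralateral CPM in each mouse; points are mice (5 control, 5 cKO) and black bars the mean ± SD. Mrgpra3, Mrgprx1 and Mrgprb5 lie below 0 in all 10 mice, whereas Mrgprf lies above 0 in the 5 control mice and ranges from -0.93 to 0.36 in cKO mice.

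The same comparison was made in cKO mice. On the cut side 3 of the 7 receptors fell, where 15.1% of the tested genes were called lower and 31.3% in either direction. They were Mrgprx1 (log2 fold change -0.53), Mrgpra3 (-0.42) and Mrgprb5 (-0.38). Mrgprd, Mrgpre, Mrgprb4 and Mrgprf were not called. The median of the 7 was -0.33, the value of Mrgprf, against -0.0296 over all tested genes. With the 3 fibroblast-rich libraries left out the median was -0.20, and in control mice -0.22.

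Mrgprx1 had 25.5, 21.6, 20.9, 25.7 and 21.6 CPM contralaterally and 15.5, 14.8, 16.4, 16.2 and 17.2 CPM ipsilaterally in cKO mice 61, 64, 95, 99 and 100. As in control mice, the sides did not overlap. The log2 fold change of -0.53 had an SE of 0.0772 (edgeR adjusted p = 1.75e-05).

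Mrgpra3 had 17.2, 17.6, 16.3, 18.9 and 16.3 CPM contralaterally and 11.2, 11.1, 14.7, 13.8 and 13.7 CPM ipsilaterally. The sides again did not overlap, and the log2 fold change was -0.42 (SE 0.112, edgeR adjusted p = 0.00643). Ranges that did not overlap, with the ipsilateral libraries lower, were seen for 2 of the 7 receptors in cKO mice (8.32% of all tested genes) and for 4 in control mice (12.3%).

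Mrgprb5 had 3.52, 4.44, 3.36, 4.16 and 2.68 CPM contralaterally and 2.82, 2.70, 2.90, 3.01 and 2.53 CPM ipsilaterally. Each mouse was lower on the cut side, but the contralateral library of mouse 100 lay within the ipsilateral range. The log2 fold change was -0.38 (SE 0.119, edgeR adjusted p = 0.0188), and the call was lost without mouse 64 (-0.29, adjusted p = 0.119) or mouse 99 (-0.35, adjusted p = 0.0537).

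Mrgprd had 206, 186, 181, 248 and 190 CPM contralaterally and 187, 175, 199, 208 and 215 CPM ipsilaterally, with 3 of 5 mice lower on the cut side. The ranges overlapped and the log2 fold change was -0.04 (edgeR adjusted p = 0.747). It was -0.20 without the 3 fibroblast-rich libraries, where it was not called either (edgeR adjusted p = 0.122). Mrgpre had 33.9, 29.6, 37.3, 37.7 and 35.3 CPM contralaterally and 32.5, 31.6, 33.8, 33.5 and 32.5 CPM ipsilaterally, lower in 4 of 5 mice. Its log2 fold change of -0.09 was not called (edgeR adjusted p = 0.207), but was called without mouse 64 (-0.12, adjusted p = 0.0253), the mouse that had the lowest level on both sides.

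Mrgprb4 and Mrgprf varied most among the cKO contralateral libraries, and in opposite directions. Mrgprb4 had 16.8, 12.9, 10.8, 17.9 and 12.7 CPM contralaterally and 16.2, 17.5, 15.8, 16.8 and 16.6 CPM ipsilaterally. Mrgprf had 4.29, 7.47, 10.5, 4.06 and 10.5 CPM contralaterally and 5.28, 6.41, 5.55, 5.20 and 6.99 CPM ipsilaterally. The contralateral libraries of mice 64, 95 and 100 were the 3 lowest of all 20 for Mrgprb4 and the 3 highest for Mrgprf, and they are the same 3 with the highest fibroblast markers.

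In the fit of all 20 libraries, the cKO injury response was 0.22 for Mrgprb4 (edgeR adjusted p = 0.106) and -0.33 for Mrgprf (edgeR adjusted p = 0.287), both on the log2 scale. Mrgprb4 was called higher when mouse 99 was left out (0.32, edgeR adjusted p = 0.0188). Without those 3 libraries both directions turned. Mrgprb4 was then at -0.06 (edgeR adjusted p = 0.638). Mrgprf was at 0.50 (edgeR adjusted p = 0.0112), and at 0.36 in control mice in the same fit. The libraries left out held the lowest Mrgprb4 and the highest Mrgprf of all, so leaving them out by itself moves both values this way. These 2 turns therefore cannot tell what the response would be in other cKO mice. In that fit 3 receptors were called lower and 1 higher in cKO mice, where 10.9% of 29937 tested genes were called lower and 12.3% higher. The falls of Mrgprx1 (-0.67), Mrgpra3 (-0.48) and Mrgprb5 (-0.45) were called there too, with the 2 remaining cKO contralateral libraries. In control mice the same fit called 6 receptors lower, Mrgprb4 among them (-0.16, edgeR adjusted p = 0.0393), and Mrgprf higher, where 15.4% of genes were called lower and 15.8% higher.

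**Figure D3:**
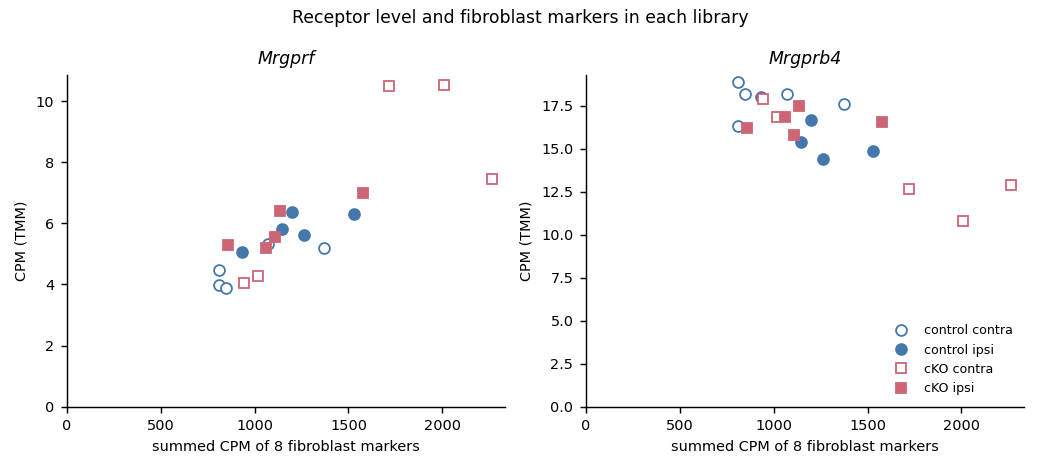
Level of Mrgprf and of Mrgprb4 (TMM-scaled CPM) against the summed CPM of 8 fibroblast markers in the same library; open symbols are contralateral and filled symbols ipsilateral libraries, circles control and squares cKO. The 3 cKO contralateral libraries at 1718 to 2263 summed CPM hold the highest Mrgprf and the lowest Mrgprb4 of the 20 libraries.

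Over the 20 libraries the levels of Mrgprb4 and Mrgprf had a Pearson r of -0.81, given as a description of libraries that share groups and depth. None of the 8 fibroblast markers was at 0 in any group, and their summed CPM ranged from 808 to 1372 in control contralateral, 933 to 1529 in control ipsilateral, 943 to 2263 in cKO contralateral and 860 to 1578 in cKO ipsilateral libraries. The 8 markers of smooth muscle and pericytes, other cells that can express Mrgprf, summed to 248 to 399 CPM over all libraries with none at 0. The 8 mast cell markers summed to 12.5 to 35.9 CPM with none at 0. The part of these cell types in the levels of the receptors was not tested.

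The genotypes were compared next. On the contralateral side none of the 7 was called between cKO and control mice, where 21 of the 28564 tested genes (0.0735%) were called. The log2 fold changes were -0.33 for Mrgprb4, -0.26 for Mrgpra3, -0.22 for Mrgprb5, -0.20 for Mrgprx1, -0.12 for Mrgprd, -0.11 for Mrgpre and 0.69 for Mrgprf. Of these, 5 had an unadjusted p under 0.05, as had 17.5% of the tested genes, and the smallest adjusted p was 0.126, that of Mrgprb4 (SE 0.102, edgeR). For Mrgprf the adjusted p was 0.138 (SE 0.221, edgeR).

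Mrgpra3 was the only one of the 7 whose ranges were apart between genotypes on this side, at 16.3 to 18.9 CPM in cKO and 19.2 to 21.5 CPM in control libraries. Over all tested genes 1.07% were lower in each of the 5 cKO libraries in this way. Its change was nevertheless not called (SE 0.111, edgeR adjusted p = 0.233).

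The contralateral results depended on which mice and libraries were included and on the method. Without mouse 99, Mrgprb4 (-0.42, adjusted p = 0.0101), Mrgprd (-0.20, adjusted p = 0.0398) and Mrgprf (0.84, adjusted p = 0.0143) were called by edgeR, in a fit that called 3326 genes (11.5%). DESeq2 called Mrgprb4 (-0.32, adjusted p = 0.0413) and Mrgprf (0.70, adjusted p = 0.0269) among 1041 genes (3.64%). Without the 3 fibroblast-rich libraries no receptor was called, 2 genes in the table were (0.00668%), and the log2 fold changes turned to 0.04 for Mrgprd and -0.13 for Mrgprf. Those of the other 5 kept their sign, at -0.04 for Mrgprb4, -0.05 for Mrgprx1, -0.07 for Mrgpre, -0.14 for Mrgprb5 and -0.20 for Mrgpra3 (edgeR adjusted p = 1.00 for each).

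On the ipsilateral side none of the 7 was called either, where 2 of the tested genes (0.007%) were. The log2 fold changes lay between -0.06 (Mrgpra3 and Mrgprx1) and 0.12 (Mrgprb5), no unadjusted p was under 0.05 (2.36% of the tested genes), and the ranges of all 7 overlapped (apart for 0.599% of the genes). The ipsilateral means of the 2 genotypes were 13.4 ± 2.86 and 12.9 ± 1.63 CPM for Mrgpra3, 16.6 ± 1.50 and 16.0 ± 0.919 CPM for Mrgprx1 and 189 ± 9.62 and 197 ± 16.0 CPM for Mrgprd, each in control and then cKO mice (n = 5).

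The difference between the genotypes in their injury response was tested as an interaction, and it was called for no receptor and no gene (0% of 28564). At an unadjusted p under 0.05 there were 2799 genes (9.8%), 2 of the 7 receptors among them, and DESeq2 called 11 genes, none of them a receptor. The interaction was 0.39 for Mrgprb4 (SE 0.143, edgeR adjusted p = 0.485) and -0.68 for Mrgprf (SE 0.311, edgeR adjusted p = 0.505) on the log2 scale. For the other 5 it was 0.34 (Mrgprb5), 0.20 (Mrgpra3), 0.18 (Mrgprd), 0.14 (Mrgprx1) and 0.14 (Mrgpre). That 5 receptors were called lower in control and 3 in cKO mice is therefore not shown to be a difference between the genotypes. Without the 3 fibroblast-rich libraries the interaction was 0.10 for Mrgprb4, 0.14 for Mrgprf, 0.25 for Mrgprb5, 0.14 for Mrgpra3, 0.01 for Mrgprd, -0.01 for Mrgprx1 and 0.10 for Mrgpre, and none was called.

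**Figure D4:**
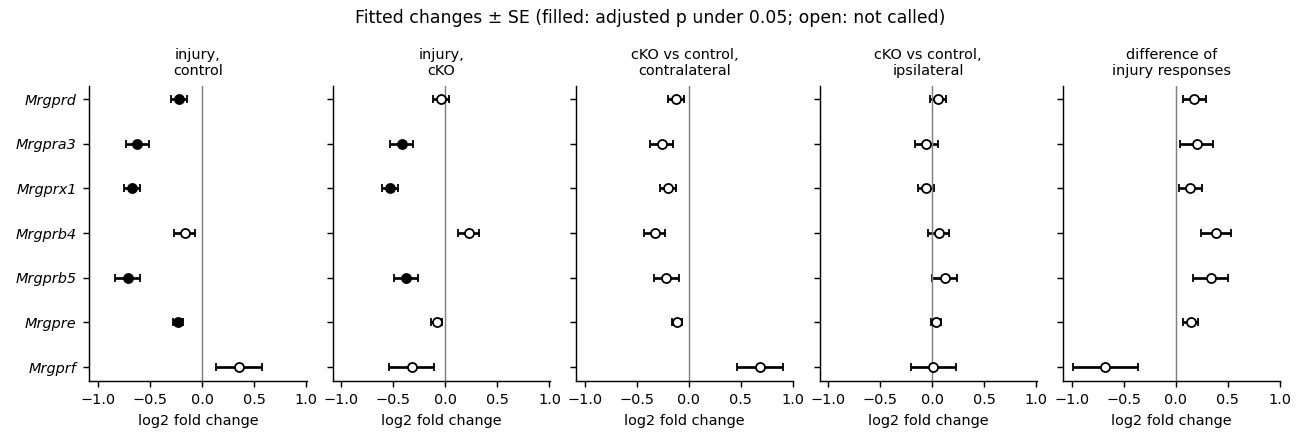
Fitted log2 fold change ± SE of each receptor in the 5 comparisons, from edgeR over all 20 libraries; filled points have an adjusted p under 0.05 over 28564 genes. Filled points appear only in the 2 injury panels, 5 in control and 3 in cKO mice, and Mrgprf has the widest error bars of the 7.

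The other receptors of the family were read from the same fit. Of 15 listed, 11 were tested and 8 averaged at least 0.1 CPM, and in control mice 4 fell and none rose, where 16.0% of all tested genes were called lower and 13.8% higher. Mrgpra2b went from 10.5 ± 1.80 to 6.89 ± 0.620 CPM (log2 fold change -0.61, edgeR adjusted p = 0.00179), and its near-identical copy Mrgpra2a from 3.13 ± 0.379 to 2.10 ± 0.210 CPM (-0.57, edgeR adjusted p = 0.00383; n = 5 each). Mrgpra1 (-0.81, edgeR adjusted p = 0.00424) and Mas1, the founding member of the family (-0.73, edgeR adjusted p = 0.0312), averaged under 1 CPM. In cKO mice, where 15.1% of all tested genes were called lower and 16.2% higher, Mrgpra2a alone was called (-0.41, edgeR adjusted p = 0.0337), and Mrgpra2b (-0.31), Mrgpra1 (-0.28) and Mas1 (-0.63) were not. In the fit that left out the 3 fibroblast-rich libraries, where 10.9% of genes were called lower, Mrgpra2a (-0.58, edgeR adjusted p = 0.0283) and Mrgpra2b (-0.53, edgeR adjusted p = 0.0188) were called in cKO mice.

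The remaining named receptors were not called in either genotype in the fit of all 20 libraries. They were Mrgpra4 (-1.09 and -0.28 in control and cKO mice), Mrgpra9 (-0.27 and 0.17), Mrgprh (-0.37 and 0.31) and Mrgprb1 (0.88 and 0.04). With the fibroblast-rich libraries left out Mrgpra4 was called in control mice (-1.08, edgeR adjusted p = 0.0473). Mrgprb1 is known from mast cells rather than neurons. It averaged 0.230 ± 0.0208 CPM in control contralateral libraries and 0.427 to 0.448 CPM in the other 3 groups. Of the mast cell markers, 7 of 8 had positive values in control mice, with a median of 0.64 and 2 called. In cKO mice 6 of 8 had positive values, with a median of 0.18 and 1 called (0.59 and 1 with the 3 fibroblast-rich libraries left out). All of these calls were higher. Of all tested genes 13.8% were called higher in control mice, 16.2% in cKO mice and 12.3% in cKO mice with those libraries left out. The cKO count of mast cell markers was close to this share.

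The pseudogene Mrgprx3-ps, named after its values were seen, was counted in every library. It had 49.1 ± 2.68 and 34.1 ± 2.51 CPM in control and 43.1 ± 4.99 and 35.3 ± 4.63 CPM in cKO libraries on the contralateral and ipsilateral sides (n = 5). It fell in both genotypes, by 0.53 on the log2 scale in control mice (edgeR adjusted p = 6.87e-05) and by 0.29 in cKO mice (edgeR adjusted p = 0.0124), and was lower on the cut side in 10 of 10 mice. As the aligned stretches of Mrgpra3 and Mrgprx3-ps show, 11 bases separate them where they are most alike. Mrgprc1-ps, the close copy of Mrgprx1, fell in control mice (-0.45, edgeR adjusted p = 0.0337) and was not called in cKO mice (0.06). The pseudogenes Mrgprb12-ps and Mrgprc2-ps, and Mrgpra14, were called in neither genotype.

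The neuron classes that carry the receptors were described by lists of other marker genes. In control mice 7 of the 12 markers of NP1 neurons fell and 1 rose (median -0.30), where 16.0% of all tested genes were called lower and 13.8% higher. Agtr1a, an angiotensin receptor (-0.83, edgeR adjusted p = 3.88e-06), Gfra2, the neurturin coreceptor (-0.59), Lpar3, a receptor for lysophosphatidic acid (-0.59), and Grik1, a kainate receptor subunit (-0.45), were among those that fell. In cKO mice 5 fell and 4 rose (median -0.09), against 15.1% and 16.2% of all tested genes. Agtr1a (-0.49), Gfra2 (-0.29), Lpar3 (-0.28) and Grik1 (-0.19) fell, and Ret, the signalling coreceptor of the GDNF family, rose by 0.36, against 0.18 in control mice. Without the 3 fibroblast-rich libraries 6 fell and 2 rose in cKO mice (median -0.21), against 10.9% and 12.3% of the genes of that fit.

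Markers of itch neurons moved in both directions. The list holds markers of the NP2 class, which carries Mrgpra3 and Mrgprx1, together with markers of the separate NP3 class, such as Nts, Nppb, Sst and Il31ra. Of 12, 4 rose and 3 fell in control mice (median 0.12), and 8 rose and 1 fell in cKO mice (median 0.48; 6 and 2 without the 3 fibroblast-rich libraries). Of all tested genes 13.8% were called higher and 16.0% lower in control mice, 16.2% and 15.1% in cKO mice, and 12.3% and 10.9% in cKO mice with those libraries left out. Gfra1, a GDNF coreceptor, rose by 1.08 (control) and 1.23 (cKO), and the peptide gene Nts by 0.68 and 1.02. Nppb, the gene of an itch neuropeptide, rose by 0.29 in control and by 0.65 in cKO mice. Ptgdr, a prostaglandin D2 receptor, fell in both genotypes (-0.74 and -0.41). Sst, the somatostatin gene, was called in control mice (-0.61) and not in cKO mice (-0.41), and F2rl1, the protease receptor PAR2, in cKO mice (1.01) and not in control mice (0.43). F2rl1 was low, with group means of 0.435 to 0.895 CPM. The interaction was called for none of these itch neuron markers.

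Other neuron classes gave the following counts, to be read against 16.0% of all tested genes called lower and 13.8% higher in control mice, and 15.1% and 16.2% in cKO mice. Of 6 markers of C low-threshold mechanoreceptors 4 fell in control mice (median -0.37). Among them were Slc17a8, a vesicular glutamate transporter (-0.46), and Th, tyrosine hydroxylase (-0.38). In cKO mice (median -0.09) 2 fell, Gfra2 (-0.29) and Zfp521 (-0.18), and 1 rose, Tafa4 (0.37, edgeR adjusted p = 0.00167). Slc17a8 (-0.08), Th (-0.10) and Piezo2 (0.19) were not called in cKO mice. Of 7 markers of peptidergic nociceptors 1 rose and 1 fell in control mice, close to the share of all tested genes. The neuropeptide gene Adcyap1 rose by 1.77 and the receptor gene Kit fell by 0.37. In cKO mice Adcyap1 rose by 1.70 and 2 fell, Kit by 0.26 and Calca by 0.14, and Calca was not called in control mice (0.03). Of 8 markers of large myelinated neurons 1 rose and 2 fell in control mice, and 2 fell in cKO mice. Of 10 pan-neuronal markers 5 fell in control (median -0.09) and 3 in cKO mice (median -0.08), with Isl1, a transcription factor of sensory neurons, at -0.37 and -0.35. With the fibroblast-rich libraries left out, the cKO counts were 3 lower and none higher for the C low-threshold mechanoreceptor list, 1 of each for the peptidergic list, 1 higher and 3 lower for the large myelinated list, and 5 lower for the pan-neuronal list, in a fit that called 10.9% of genes lower and 12.3% higher.

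**Figure D5:**
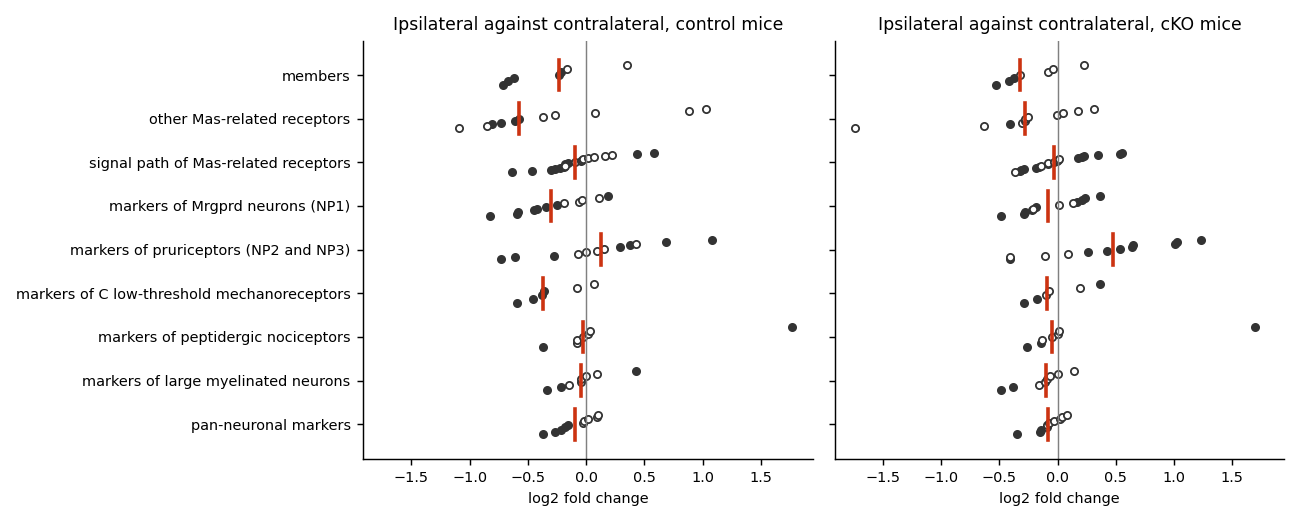
Log2 fold change of ipsilateral against contralateral ganglia for each tested gene of each list, in control mice (left) and cKO mice (right); filled points are called at an adjusted p under 0.05 and red lines are list medians. The 7 receptors have medians of -0.23 and -0.33 (-0.22 and -0.20 with the 3 fibroblast-rich libraries left out), and the itch neuron markers medians of 0.12 and 0.48.

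The signalling chain downstream of the receptors was mixed. Of 19 genes 8 fell and 2 rose in control mice (median -0.10), and 5 fell and 6 rose in cKO mice (median -0.03). Of all tested genes 16.0% were called lower and 13.8% higher in control mice, and 15.1% and 16.2% in cKO mice. The chloride channel gene Ano1 rose by 0.58 in control mice and by 0.55 in cKO mice, and Arrb1, an arrestin gene, by 0.44 and 0.53. Plcb3, a phospholipase C used by several of these receptors, fell by 0.46 and 0.29. Kcnq3, a potassium channel gene, rose by 0.34 in cKO mice and was not called in control mice (0.22). In cKO mice 8 fell and 2 rose when the 3 fibroblast-rich libraries were left out, against 10.9% lower and 12.3% higher of all genes in that fit.

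Between genotypes on the contralateral side no gene of any of these neuron lists was called. All 12 NP1 markers and all 12 itch neuron markers had negative values, with medians of -0.20 and -0.28, against -0.013 over all tested genes. All 6 markers of C low-threshold mechanoreceptors (median -0.24) and all 7 defining markers of sensory neurons (-0.12) were negative too. Markers of peptidergic nociceptors (median -0.0044) and of large myelinated neurons (-0.039) went in both directions. All 8 fibroblast markers had positive values with a median of 0.89. Without the 3 fibroblast-rich libraries the medians of the NP1, itch neuron and fibroblast markers were -0.04, -0.17 and 0.04, against -0.0033 over all tested genes.

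The genes whose levels followed each receptor most closely over the 20 libraries were searched among 11897 genes of at least 5 CPM. For Mrgprd they were Gphn (Pearson r 0.92), Atg9a and Usp8 (0.90 each); for Mrgpra3, Hs6st2 and A3galt2 (0.93 each); and for Mrgprx1, Slc36a1, Mab21l2 and Rassf5 (0.97 each). For Mrgprb4 they were Pstpip2, Rps6ka2 and Gna14 (0.88 to 0.91), for Mrgprb5 Cyp2j12, Grpel2 and Tceal3 (0.90 to 0.92), and for Mrgpre Bend4, Chd5 and Arhgef18 (0.91 each). For Mrgprf they were Nxn, Twsg1 and Cd81 (0.95 to 0.96). Among the receptors themselves the closest pair was Mrgpra3 and Mrgprx1 (r 0.91). These correlations include the difference between the sides. After the group means were taken out, that of Mrgpra3 with Mrgprx1 was 0.59, and that of Mrgprd with Mrgprx1, 0.72 over the libraries, was 0.86.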

How the data were processed

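Stranded mRNA libraries were read as paired reads of 150 bases, per the labels. The authors deposited exonic counts per gene and FPKM; the submitters' processing notes name HISAT2, Picard, mm10 and mm39, and the counter, annotation and strand setting are not given in the sources used here. The deposited FPKM divide by the whole gene span, so levels per length were computed from counts. Gene symbols came from GENCODE M21 (51487 of 78258 identifiers, 98.1% of counts; Tafa4 is listed there under its older name).

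Counts were fitted in R 4.3.3 with edgeR 4.0.16 (TMM, robust quasi-likelihood F-test; filterByExpr, minimum count 10 and total 15) in 1 fit of 20 libraries with a mean per group, and p-values were Benjamini-Hochberg adjusted over 28564 genes and called under 0.05. Levels are mean ± SD of CPM. The procedure was tested on simulated data. Named genes were the 7 receptors, Ahr, Atf3, other receptors of at least 0.1 CPM, and up to 4 called genes per list with the largest change. One gene that this rule names is not reported here. Members and lists were chosen with earlier results of these data known. No label says that mice were processed in batches. The p-values measure the spread between the mice of a group. Those of the injury comparisons and of the interaction do not use the pairing of the 2 sides of a mouse, except with the replicate block. Both libraries of a mouse are paired by animal, per the labels; the correlation of their deviations had a median of 0.186 (-0.0546 to 0.361), above 0.1 in 7 of 10 mice. Alternatives were DESeq2 1.42.0, RLE scaling, testing without a filter or from a mean of 1 CPM, limma 3.58.1 on log2-scaled FPKM (pseudocounts 1 and 0.1), a replicate block, fits restricted to the libraries compared, and fits without each mouse. Sequences were aligned with Biopython 1.88. One sample title shortens a mouse number, which was taken from its library name, and a treatment label names another injury than the protocol, which was followed.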

Additional observations from a re-analysis of the deposited data

Results flagged for a closer look

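Mrgprb5 in the control contralateral group held 1 library apart from the others: mouse 96 had 5.01 CPM, and its gap to the next library was 0.722 of the group's range, above Dixon's critical value of 0.71 for 5 samples. Of 42 groups of receptor values tested this way 1 was past the critical value, and chance gives about 2.1. The fall of Mrgprb5 in control mice was called without each mouse in turn.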

How the results depend on the processing

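The falls of Mrgpra3 and Mrgprx1 in both genotypes, and of Mrgprb5 and Mrgpre in control mice, were called under all 20 settings. Their ranges in control mice were -0.70 to -0.37, -0.74 to -0.52, -0.75 to -0.56 and -0.24 to -0.21. The replicate block, with the mouse as a block, changed no call of a receptor; it gave 8559 calls in control and 9015 in cKO mice and 0 for the interaction.

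Over all genes the contralateral genotype comparison was the one that moved, from 21 calls to 50 without a filter, 45 from a mean of 1 CPM, 2 with only the libraries compared, 1041 with DESeq2, 6 and 7 on log2 FPKM with a pseudocount of 1 and 0.1, and 2 without the 3 fibroblast-rich libraries. Leaving out each mouse gave 4 to 3326 calls, the highest without mouse 99. The interaction went from 0 to 11 with DESeq2 and to 0 to 43 when each mouse was left out. Injury counts stayed within 1.5 times.

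Without the 3 fibroblast-rich libraries, directions turned for Mrgprb4 (-0.0592) and Mrgprf (0.50) in the cKO injury response. They also turned for Mrgprd (0.0435) and Mrgprf (-0.13) between genotypes contralaterally, and for Mrgprx1 (-0.00986) and Mrgprf (0.14) in the interaction. The libraries left out held the lowest Mrgprb4 and the highest Mrgprf, which by itself moves the values of these 2 receptors. The cause was not tested. When 1 mouse was left out, values of both signs were reached by Mrgprd in cKO mice (-0.0954 to 0.0280) and ipsilaterally between genotypes by Mrgpra3 (-0.153 to 0.0449) and Mrgprf (-0.0573 to 0.0535), none of them called. By the deposited FPKM, Mrgprb4 ranked 2 and Mrgpra3 ranked 6 of the 7 receptors. Depth limited the receptors under 1 CPM, with 2 to 99 counts per library among those named.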
